A study of Mus musculus with 6 samples.

Results

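Kappa light chain V genes were examined in cells sorted from the injured mouse retina, where antibody transcripts made up a measurable part of each library. A V gene was included when its GENCODE symbol starts with *Igkv* and at least 1 library held 10 or more counts for it. Of 55573 rows of the count table, 160 carry an *Igkv* symbol, and 77 of these met the limit. Of the 77, 76 are annotated as V genes and 1, *Igkv2-116*, as a V pseudogene. A further 67 *Igkv* rows were at 0 in every library, and 16 had between 1 and 9 counts in their highest library. Just inside the limit were 2 genes with 11 and 14 counts in their highest library, the latter being *Igkv1-132*, and just outside it were the pseudogene *Igkv4-73*, with 9, and *Igkv1-99*, with 8. Rows outside the limit together held 13 to 25 counts per library.

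An antibody light chain of the kappa type is encoded by 1 V segment, 1 J segment and the constant segment *Igkc*. A developing B cell joins 1 of many V segments to a J segment by cutting and rejoining its own DNA, so each B cell clone and the plasma cells that descend from it transcribe mainly the V gene that clone has chosen. The V exon encodes most of the part of the light chain that contacts antigen. Counts of V genes in a tissue therefore record which clones contributed RNA, weighted by how much light chain RNA each cell held, and plasma cells hold far more of it than resting B cells. In bulk RNA fewer cells and less RNA per cell cannot be told apart.

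The libraries came from adult C57BL/6J mice of both sexes, 6 to 10 weeks old per the study's methods. AAV2 carrying *GFP* (the control group) or *Ezh2* (the *Ezh2* overexpression group) was injected into the vitreous, the optic nerve was crushed 2 weeks later, and retinal cells were collected 3 days after the crush. Both groups thus carried a virus and an injury, and AAV2 delivered this way reaches retinal cells other than retinal ganglion cells (RGCs). Living cells positive for CD90.2, the product of *Thy1*, were sorted, and CD16/CD32 was blocked before staining. There were 3 libraries per group, named GFP replicates 1 to 3 and Ezh2 replicates 1 to 3, and whether each came from a separate animal or from a pool was not stated in the labels, so the p-values below measure the spread between these libraries, which may be technical.

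Total counts ranged from 30569933 to 35971192 per library. The overexpressed gene *Ezh2* stood at 28.8 to 34.6 CPM (counts per 1000000 counts of the library) in GFP libraries and at 65.3 to 104.8 CPM in Ezh2 libraries. The labels name the samples RGCs. Of 6 RGC markers, *Rbpms* was between 16.4 and 20.8 CPM, *Pou4f2* had 0 to 3 counts per library, and the 6 together reached 32.0 to 44.1 CPM. The 77 kappa V genes together reached 868 to 1528 CPM. The study excluded 1 *Ezh2* library after principal component analysis. That it is Ezh2 replicate 3 is an inference, and tests across genes therefore used the other 5 libraries and were repeated with all 6. In this library 20 B cell and plasma cell genes summed to 950 CPM, against 741 to 854 CPM in the other 5. Much of that sum was *Irf4*, a transcription factor of plasma cells and activated T cells, at 419 CPM against 52.4 to 70.8 CPM. *Prdm1* and *Pou2f2* were also highest in it. *Jchain*, the most abundant gene of the list in the other 5, was lowest in it, at 269 CPM against 441 to 490 CPM. Kappa V genes were likewise lowest in it.

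The V exons of 4 *Igkv6* genes and 2 *Igkv3* genes are shown first, because close relatives within these families moved in opposite directions between the groups. They are germline reference sequences of GENCODE M21 transcripts on mouse build GRCm38, the coding strand, 5′ to 3′, and not sequences read from these libraries. *Igkv6-14* lies on chromosome 6 at 70434952 to 70435476, minus strand (V exon 70434952 to 70435249), *Igkv6-32* at 70074024 to 70074603, minus strand, *Igkv6-20* at 70335841 to 70336507, minus strand, and *Igkv6-13* at 70457501 to 70458036, minus strand. Capitals mark bases that differ from *Igkv6-14* in a pairwise alignment.
Igkv6-14: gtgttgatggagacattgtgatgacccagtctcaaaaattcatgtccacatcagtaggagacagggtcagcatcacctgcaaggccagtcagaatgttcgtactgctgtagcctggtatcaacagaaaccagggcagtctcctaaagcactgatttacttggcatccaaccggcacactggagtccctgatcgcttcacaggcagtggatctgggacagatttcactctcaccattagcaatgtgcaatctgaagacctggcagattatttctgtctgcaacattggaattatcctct
Igkv6-32: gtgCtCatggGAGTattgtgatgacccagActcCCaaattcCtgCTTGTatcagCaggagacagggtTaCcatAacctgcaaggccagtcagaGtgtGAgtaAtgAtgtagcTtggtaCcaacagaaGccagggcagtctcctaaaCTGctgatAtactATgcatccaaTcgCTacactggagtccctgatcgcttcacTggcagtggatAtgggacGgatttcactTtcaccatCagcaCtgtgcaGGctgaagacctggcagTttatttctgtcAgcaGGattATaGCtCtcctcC
Igkv6-20: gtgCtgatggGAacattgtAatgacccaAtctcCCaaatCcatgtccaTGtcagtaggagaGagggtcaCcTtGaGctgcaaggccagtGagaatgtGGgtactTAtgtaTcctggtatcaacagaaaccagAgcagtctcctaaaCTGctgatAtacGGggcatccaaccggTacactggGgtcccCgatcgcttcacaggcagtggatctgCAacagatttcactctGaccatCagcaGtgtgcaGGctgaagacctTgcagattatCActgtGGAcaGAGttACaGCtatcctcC
Igkv6-13: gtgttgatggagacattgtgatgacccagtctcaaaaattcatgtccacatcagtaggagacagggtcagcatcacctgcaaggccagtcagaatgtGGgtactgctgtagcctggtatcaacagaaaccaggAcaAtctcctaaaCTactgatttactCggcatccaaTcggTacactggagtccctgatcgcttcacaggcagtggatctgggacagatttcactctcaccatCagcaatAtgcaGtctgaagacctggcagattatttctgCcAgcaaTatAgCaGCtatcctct
*Igkv6-13* shared 93.6% of its 298 V exon bases with *Igkv6-14*, and differed at 19. *Igkv6-32* shared 81.9% with *Igkv6-14*, and *Igkv6-20* shared 82.6%.

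*Igkv3-10* lies on chromosome 6 at 70572633 to 70573230 and *Igkv3-4* at 70671788 to 70672377, both on the plus strand. The leading 300 of the 310 bases of each V exon are given, with capitals where *Igkv3-4* differs from *Igkv3-10*.
Igkv3-10: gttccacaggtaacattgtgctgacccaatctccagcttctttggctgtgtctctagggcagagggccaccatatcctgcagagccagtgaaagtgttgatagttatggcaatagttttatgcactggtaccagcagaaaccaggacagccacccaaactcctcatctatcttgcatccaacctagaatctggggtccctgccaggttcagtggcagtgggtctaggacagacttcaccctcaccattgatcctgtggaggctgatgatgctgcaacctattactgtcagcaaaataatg
Igkv3-4: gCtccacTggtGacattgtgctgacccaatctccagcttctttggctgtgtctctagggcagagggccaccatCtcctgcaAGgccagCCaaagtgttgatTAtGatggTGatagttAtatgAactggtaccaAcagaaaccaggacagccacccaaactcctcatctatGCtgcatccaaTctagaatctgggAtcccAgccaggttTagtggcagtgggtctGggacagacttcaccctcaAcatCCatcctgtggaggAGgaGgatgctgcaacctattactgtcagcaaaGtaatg
These exons were 90.3% identical, with 30 differing bases.

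Such likeness bears on what a count means here, since a read from 1 gene can match another. Each 50-base window of a member's transcript was compared with the transcripts of every other annotated gene. In 14 of 77 members all windows were unique, and the median member had 71.0% unique windows. Of the 77, 60 shared a stretch of 50 or more identical bases with another member and fell into 11 groups, the largest being 21 *Igkv4* genes. Members of a group, called near-identical below, were joined directly or through other members. Some pairs in a group therefore share no such stretch, for example *Igkv6-14* and *Igkv8-27*. The longest shared stretch was 193 bases, between *Igkv13-84* and *Igkv13-85* and between *Igkv5-43* and *Igkv5-45*. For *Igkv6-14* the closest member was *Igkv6-13*, with 110 identical bases in a row, and for *Igkv3-10* it was *Igkv3-5*, with 159. All windows of *Igkv6-32*, *Igkv14-100* and *Igkv11-125* were unique. *Igkv6-20* had 35.9% unique windows and shared the others with *Igkv6-29* alone, a row with at most 2 counts in any library. Values of the other members are uncertain to the extent that reads were split among relatives.

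The summed level of kappa V genes was examined before single genes. GFP replicates 1, 2 and 3 held 1279, 1365 and 1235 CPM of kappa V counts, and Ezh2 replicates 1, 2 and 3 held 1528, 1436 and 868 CPM. The highest and the lowest library both belonged to the Ezh2 group, so the groups overlapped. Means were 1293 ± 65.6 CPM in the GFP group and 1277 ± 357 CPM in the Ezh2 group (SD, n = 3 each), which did not differ in a two-sided exact permutation test (p = 1.0, adjusted p = 1.0 over 4 such values, the smallest possible p being 0.1). Without Ezh2 replicate 3, the Ezh2 mean was 1482 ± 64.7 CPM, higher than in the GFP group by 189 CPM (exact permutation p = 0.2, the smallest possible with 3 against 2 libraries).

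*Igkc*, the only kappa constant segment, followed the V genes. It stood at 1710, 1805 and 1668 CPM in GFP replicates 1, 2 and 3 and at 2072, 1986 and 1172 CPM in Ezh2 replicates 1, 2 and 3 (exact permutation p = 1.0, adjusted p = 1.0 over the same 4 values). For each *Igkc* count there were 0.741 to 0.756 kappa V counts in GFP libraries and 0.723 to 0.740 in Ezh2 libraries. This ratio stayed nearly constant while the summed level ranged from 868 to 1528 CPM. Kappa V counts outnumbered those of the 3 lambda V genes *Iglv1*, *Iglv2* and *Iglv3* 22.7- to 33.3-fold, and heavy chain V genes (*Ighv*) summed to 1131 to 1284 CPM in GFP libraries and to 812 to 1555 CPM in Ezh2 libraries.

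**Figure D1:**
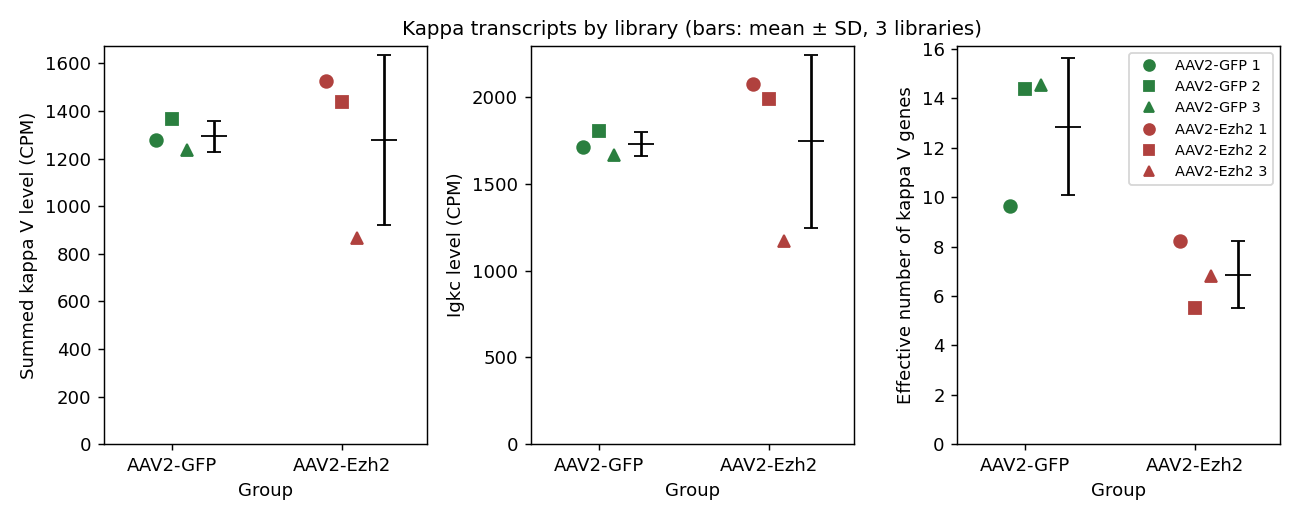
Summed kappa V level, *Igkc* level (both CPM of the library total) and effective number of kappa V genes in each library, with the mean and SD of 3 libraries per group as bars. Ezh2 replicate 3 lay lowest for both levels, at 868 and 1172 CPM, and the 3 Ezh2 libraries lay below the 3 GFP libraries for the effective number.

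A few genes supplied most kappa V counts in every library. *Igkv6-32* was the most used member in all 6 libraries, with 27.0%, 19.1% and 18.9% of kappa V counts in GFP replicates 1, 2 and 3 and 30.1%, 39.5% and 35.2% in Ezh2 replicates 1, 2 and 3. Every Ezh2 library thus gave *Igkv6-32* a larger share than any GFP library. As a level it stood at 345, 261 and 234 CPM in GFP libraries and 460.4, 568 and 306 CPM in Ezh2 libraries. Levels overlapped between the groups because of Ezh2 replicate 3, and *Igkv6-32* was not called with 5 libraries (log2 fold change 0.89 ± 0.24 SE, edgeR adjusted p = 0.120) or with 6 (0.70 ± 0.25, edgeR adjusted p = 0.172). Its call depended on the test: it passed with DESeq2, with the kappa V total as library size, with a dispersion estimate without robust weighting and with GFP replicate 1 left out, at log2 fold changes of 0.68 to 1.07.

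The gene with the next largest share differed between the groups. It was *Igkv10-96* in all GFP libraries, with 12.2%, 10.4% and 11.5% of kappa V counts, *Igkv6-14* in Ezh2 replicates 1 and 2, with 8.01% and 9.52%, and *Igkv1-117* in Ezh2 replicate 3, with 7.88%. After *Igkv6-32*, *Igkv10-96* and *Igkv1-117* (a mean of 28.3%, 7.61% and 6.58% over the 6 libraries), the 12 most used genes were *Igkv1-110*, *Igkv14-111*, *Igkv6-14*, *Igkv5-39*, *Igkv5-48*, *Igkv4-72*, *Igkv4-63*, *Igkv6-20* and *Igkv6-25*, from 5.12% down to 1.93%. Per exonic length, 11 of these 12 also ranked among the highest 12. The 12 supplied 60.9% to 69.0% of kappa V counts in GFP libraries and 73.4% to 80.7% in Ezh2 libraries, and the other 65 members supplied the rest.

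Some of the 12 differed little between groups compared with the spread within them. *Igkv1-117* reached 69.7, 116 and 66.9 CPM in GFP libraries and 96.3, 84.7 and 68.4 CPM in Ezh2 libraries. *Igkv14-111* reached 33.5, 58.7 and 57.1 CPM in GFP libraries and 92.9, 48.4 and 46.4 CPM in Ezh2 libraries. *Igkv5-39* ranged from 24.7 to 52.1 CPM and from 15 to 82.5 CPM, and *Igkv5-48* from 28.9 to 53.1 CPM and from 17.6 to 55.6 CPM. Levels of these 4 genes, of *Igkv4-72* (23.9 to 35.7 CPM and 17.2 to 41.0 CPM) and of *Igkv1-110* (43.2 to 65.9 CPM and 42.8 to 109 CPM) overlapped between the groups over all 6 libraries, and edgeR called none with 5 or 6 libraries. For *Igkv1-110* the overlap came from Ezh2 replicate 3 alone, since Ezh2 replicates 1 and 2 stood at 109 and 80.0 CPM. With 5 libraries its log2 fold change was 0.76 (edgeR adjusted p = 0.189). It was called by DESeq2 (adjusted p = 0.0291), in edgeR with a block for replicate number (adjusted p = 3.96e-13) and without robust weighting (edgeR adjusted p = 0.000785). That block leaves few degrees of freedom with 5 libraries, so its p-value rests mainly on spread borrowed from other genes.

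**Figure D2:**
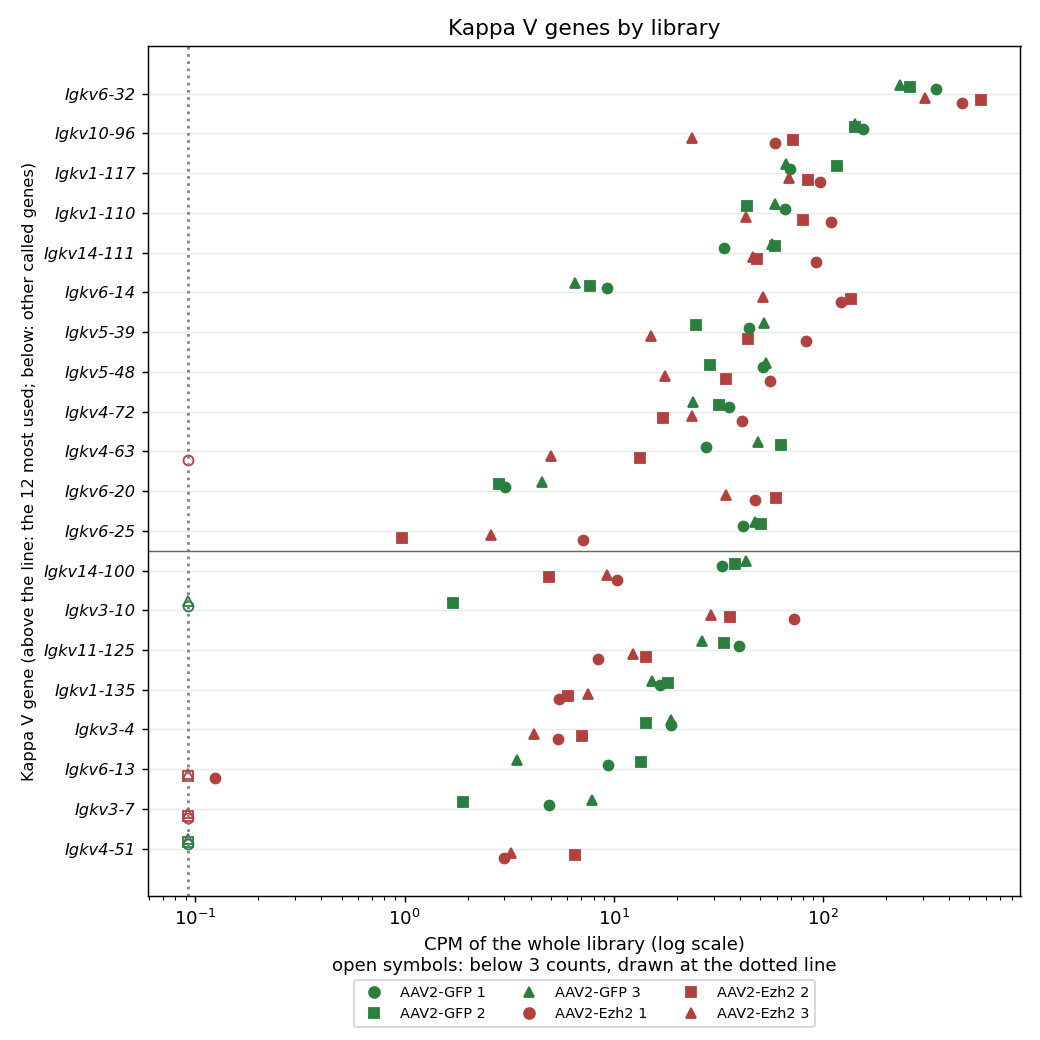
Level of the 12 most used kappa V genes and of the 8 other genes called with 5 or 6 libraries, in CPM of the library total on a log axis, 1 symbol per library. *Igkv6-14* lay more than 5 times and *Igkv6-20* more than 7 times higher in every Ezh2 library than in any GFP library, and *Igkv3-7* (GFP only) and *Igkv4-51* (Ezh2 only) were at 0 in all libraries of 1 group.

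To ask how evenly the genes were used, the inverse Simpson index was taken as an effective number of V genes, which equals the number of genes if all were used alike. It was 9.66, 14.4 and 14.5 in GFP replicates 1, 2 and 3 and 8.23, 5.53 and 6.83 in Ezh2 replicates 1, 2 and 3. All Ezh2 libraries lay below all GFP libraries, with means of 6.86 ± 1.35 and 12.9 ± 2.77 (SD, n = 3 each). The index weights the largest shares most. It therefore depends heavily on *Igkv6-32*, with 18.9% to 27.0% of kappa V counts in GFP libraries and 30.1% to 39.5% in Ezh2 libraries. It was not recalculated without that gene, so it is not separate from the difference in that share. The exact permutation p was 0.1, the smallest that 3 against 3 libraries allow, and 0.4 after adjustment over the 4 values, so the difference cannot reach 0.05 in this design. With every library thinned to 31226 kappa V counts the means were 6.90 and 12.9, and with near-identical members summed they were 5.81 and 8.49.

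The number of genes seen did not separate the groups. At least 10 counts were found for 50, 57 and 55 members in GFP libraries and for 51, 48 and 55 members in Ezh2 libraries (exact permutation p = 0.5, adjusted p = 1.0 over the 4 values). Of the 77 members, 28 had 10 or more counts in every library and 8 in 1 library only. Between 13 and 19 members were at 0 in any given library. Such a 0 is a level below 0.0834 to 0.0981 CPM, which 3 counts would give, and this floor covers counting error only, since reads without molecular identifiers are not independent molecules.

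Libraries of 1 group differed far more in kappa V genes than in other genes. Among members with at least 100 counts in a GFP library, 31 of 55 (56.4%) differed by 3-fold or more between the highest and the lowest GFP library, with a lowest count under 3 raised to 3, against 0.314% of 13995 other genes. Among Ezh2 libraries this held for 35 of 56 members (62.5%) and 3.05% of other genes, and between Ezh2 replicates 1 and 2 alone for 20 of 50 (40.0%) and 0.129%. For 21 members, 1 library held 100 or more counts while another of the same group held 0. *Igkv4-78*, for example, had 0, 249 and 424 counts in GFP replicates 1, 2 and 3, and *Igkv8-28* had 0, 1 and 301 counts in Ezh2 replicates 1, 2 and 3. Such spread was not particular to kappa V genes. The lambda gene *Iglv2* had 7, 57 and 220 counts in GFP libraries and 145, 2 and 223 in Ezh2 libraries, whereas *Iglv1* had 1321, 1508 and 1423 in GFP libraries. Heavy chain V genes were not compared in this way. The biological coefficient of variation, edgeR's estimate of the replicate spread of a gene, had a median of 0.761 over the tested members and of 0.0956 over all tested genes with 5 libraries, and of 0.629 and 0.165 with 6.

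Even so, usage was more alike within groups than between them. The Bray-Curtis dissimilarity of 2 libraries is 0 when every gene has the same share in both and 1 when no gene is used in both. It was 0.189 to 0.222 for the 3 pairs of GFP libraries, 0.179 to 0.201 for the 3 pairs of Ezh2 libraries and 0.341 to 0.449 for the 9 pairs across groups, with means of 0.200, 0.191 and 0.402. Within-group and between-group pairs did not overlap, and the nearest library to each of the 6 was one of its own group. Ezh2 replicate 3 lay close to Ezh2 replicates 1 and 2 in kappa V usage (0.192 and 0.179), although its summed kappa V level was the lowest. Across the 77 members, shares correlated at 0.946 to 0.965 (Pearson) within the GFP group, at 0.977 to 0.987 within the Ezh2 group and at 0.814 to 0.905 between groups. Spearman's rho was 0.773 to 0.823, 0.663 to 0.755 and 0.366 to 0.555. The pairs share libraries and the members are not replicates, so these values describe the libraries. Without the 10 most used members both within-group means, 0.298 for GFP and 0.322 for Ezh2 libraries, were again below the mean of 0.594 between groups. The same held with near-identical members summed, at 0.134, 0.120 and 0.262.

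**Figure D3:**
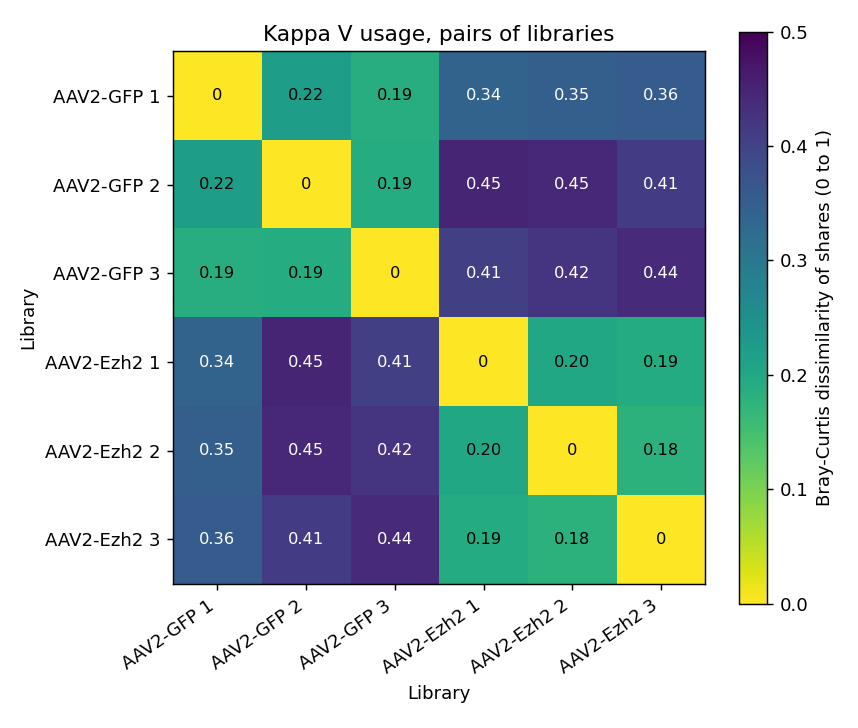
Bray-Curtis dissimilarity of kappa V shares for every pair of the 6 libraries, from 0 (same shares) on the diagonal. Pairs within a group lay between 0.179 and 0.222, and pairs across groups between 0.341 and 0.449.

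Single members were then compared with all other genes in 1 fit (edgeR's quasi-likelihood test with Benjamini-Hochberg adjustment, adjusted p under 0.05 and fold change above 1.5). Of the 77 members, 64 passed the filter on low counts with 5 libraries, and 13 did not. Compared to the control group, 4 of the 64 were higher after *Ezh2* overexpression (6.25% of tested members, against 2.52% of 20241 tested genes) and 4 were lower (6.25%, against 1.28%). With all 6 libraries 57 members were tested. Of these, 3 were higher (5.26%, against 1.62% of 19732 genes) and 6 were lower (10.5%, against 0.902%). Called with both sets of libraries were 3 genes that rose, *Igkv6-14*, *Igkv6-20* and *Igkv4-51*, and 3 that fell, *Igkv14-100*, *Igkv1-135* and *Igkv3-4*. How many genes are called depended on how the replicate spread was estimated. Without robust weighting, 8 members rose and 21 fell with 5 libraries (against 2.45% and 1.27% of all tested genes), and 6 rose and 11 fell with 6 (against 1.6% and 0.811%). DESeq2 called 6 higher and 15 lower with 5 libraries (against 2.24% and 1.13%). With a block for replicate number, which the labels do not tie to a shared animal or day, edgeR called 10 higher and 15 lower with 5 libraries (against 2.28% and 1.29%) and 4 and 6 with 6 (against 1.39% and 0.613%). In the 5-library block GFP replicate 3 has no partner and adds nothing to the comparison. Few degrees of freedom remain there, so its p-values rest mainly on spread borrowed from other genes. With the kappa V total as library size, 5 were higher and 9 lower with 5 libraries (against 1.38% and 5.49%). The median log2 fold change of the tested members was −0.45 with 5 libraries and −0.30 with 6, against −0.0078 and 0.0083 over all tested genes. Among the tested members, 6 with 5 libraries and 2 with 6 were at 0 throughout a group. Setting them to their bound left these medians as they were. It could not have moved them, since each bound lies on the same side of the median as the fitted value. Which members were tested depended on the filter on low counts. Members at 0 throughout a group passed it through the other group alone. Without that filter, the median over all 77 members was −0.41 with 5 libraries, against −0.016 over all genes. Levels of 7 of the 57 members lay above the GFP range in every Ezh2 library (12.3%, against 14.9% of all tested genes) and levels of 15 lay below it (26.3%, against 19.3%).

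*Igkv6-14* showed the largest rise in CPM among the called genes. It stood at 9.26, 7.68 and 6.51 CPM in GFP replicates 1, 2 and 3 and at 122, 137 and 51.5 CPM in Ezh2 replicates 1, 2 and 3. The lowest Ezh2 library was more than 5 times above the highest GFP library. The log2 fold change was 4.06 ± 0.10 (SE) with 5 libraries (edgeR adjusted p = 5.35e-14) and 3.75 ± 0.43 with 6 (edgeR adjusted p = 0.0146). Its share of kappa V counts rose from 0.604% ± 0.105 to 7.82% ± 1.80 (SD, n = 3 each). With 6 libraries the call was lost when any 1 GFP library was left out (edgeR adjusted p = 0.0791 to 0.0972).

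*Igkv6-13*, the nearest relative of *Igkv6-14* shown above, went the other way. It had 288, 429 and 106 counts in GFP libraries and 4, 0 and 0 counts in Ezh2 libraries. It thus met the limit and the filter on low counts through GFP libraries alone. It fell with 6 libraries (log2 fold change −7.65 ± 1.00, edgeR adjusted p = 0.0147) and was not called with 5 (−7.11 ± 1.43, edgeR adjusted p = 0.0667), where DESeq2 called it (adjusted p = 7.95e-07). *Igkv6-25*, also of this family, stood at 41.3, 50.3 and 47.2 CPM in GFP libraries and at 7.14, 0.971 and 2.59 CPM in Ezh2 libraries, below the GFP range in each. Its log2 fold change was −3.53 with 5 libraries (edgeR adjusted p = 0.0767) and −3.68 with 6 (edgeR adjusted p = 0.0545), neither of which was called. It was called lower in 7 of 22 alternatives, among them DESeq2 with 5 libraries (adjusted p = 0.00155), edgeR without robust weighting with 5 and with 6 libraries (adjusted p = 5.27e-06 and 0.012), and edgeR with Ezh2 replicate 1 or 2 left out.

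*Igkv6-20* rose with every set of libraries and every alternative tried. It stood at 3.01, 2.81 and 4.52 CPM in GFP libraries and at 47.5, 59.7 and 34.2 CPM in Ezh2 libraries. All Ezh2 libraries were more than 7 times above the highest GFP library. The log2 fold change was 3.97 ± 0.18 with 5 libraries (edgeR adjusted p = 1.02e-06) and 3.81 ± 0.26 with 6 (edgeR adjusted p = 0.000729).

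*Igkv3-10* and *Igkv4-51* were found almost only in Ezh2 libraries. *Igkv3-10* had 0, 54 and 0 counts in GFP replicates 1, 2 and 3 and 2343, 1258 and 1054 counts in Ezh2 replicates 1, 2 and 3. It was called with 5 libraries (log2 fold change 6.54 ± 1.06, edgeR adjusted p = 0.0412) and not with 6 (6.33 ± 1.20, edgeR adjusted p = 0.0583), and leaving out any 1 of the 5 libraries ended the call (edgeR adjusted p = 0.127 to 0.231), as did DESeq2 (adjusted p = 0.166). *Igkv4-51* had 0 counts in all GFP libraries and 96, 228 and 116 counts in Ezh2 libraries. It met the limit and the filter on low counts through Ezh2 libraries alone, so its entry into the test rested on the values compared. Against the floor of 3 counts per GFP library it was at least 49.0-fold higher in Ezh2 replicates 1 and 2 and at least 43.8-fold higher over all 3 (edgeR adjusted p = 3.19e-08 with 5 libraries and 0.00202 with 6). It belongs to the group of 21 near-identical *Igkv4* genes, although 92.8% of its windows were unique.

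Among genes that fell, *Igkv10-96* was the most abundant. It stood at 156, 142 and 142 CPM in GFP libraries and at 58.8, 72.0 and 23.7 CPM in Ezh2 libraries, below the GFP range in each. The log2 fold change was −1.15 ± 0.08 with 5 libraries (edgeR adjusted p = 2.79e-07), and −1.48 ± 0.41 with 6, where Ezh2 replicate 3 lay lowest and the gene was not called (edgeR adjusted p = 0.115). *Igkv14-100* stood at 32.7, 37.9 and 43.0 CPM in GFP libraries and at 10.4, 4.91 and 9.23 CPM in Ezh2 libraries. Its log2 fold change was −2.31 ± 0.39 with 5 libraries (edgeR adjusted p = 0.0444) and −2.17 ± 0.28 with 6 (edgeR adjusted p = 0.0113), and with 5 libraries the call was lost when any 1 GFP library was left out (edgeR adjusted p = 0.118 to 0.151).

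*Igkv1-135*, the member farthest from the J segments at 3112.1 kb from *Igkj1*, and *Igkv3-4*, 50.2 kb from it, fell with every set of libraries and every alternative tried in which they were counted singly. *Igkv1-135* stood at 16.6, 18.1 and 15.3 CPM in GFP libraries and at 5.47, 6.05 and 7.51 CPM in Ezh2 libraries (log2 fold change −1.52 ± 0.13 with 5 libraries, edgeR adjusted p = 6.71e-10, and −1.35 ± 0.17 with 6, edgeR adjusted p = 0.0036). *Igkv3-4* stood at 18.8, 14.2 and 18.8 CPM in GFP libraries and at 5.40, 7.08 and 4.14 CPM in Ezh2 libraries (log2 fold change −1.45 ± 0.15 with 5 libraries, edgeR adjusted p = 5.48e-08, and −1.61 ± 0.20 with 6, edgeR adjusted p = 0.00385). For these 2 genes replicates were close together, unlike for most members.

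Apart from *Igkv6-13*, the remaining genes called lower with 6 libraries were not called with 5 in the robust edgeR fit. *Igkv11-125* stood at 39.8, 33.6 and 26.4 CPM in GFP libraries and at 8.38, 14.2 and 12.3 CPM in Ezh2 libraries (log2 fold change −1.47 ± 0.23, edgeR adjusted p = 0.0148, against 0.0882 with 5 libraries). With 5 libraries it was called lower by DESeq2 (adjusted p = 0.000208), with the kappa V total as library size (edgeR adjusted p = 3.15e-06) and without robust weighting (edgeR adjusted p = 2.83e-05). *Igkv3-7* had 149, 60 and 243 counts in GFP libraries and 0 in every Ezh2 library. It thus met the limit and the filter on low counts through GFP libraries alone. Against the floor it was at least 56.0-fold lower (edgeR adjusted p = 0.0237 with 6 libraries and 0.111 with 5). It was called lower in 14 of 22 alternatives, among them, with 5 libraries, DESeq2 (adjusted p = 3.51e-07), the replicate block (edgeR adjusted p = 4.31e-17) and no filter on low counts (edgeR adjusted p = 1.3e-20). The limit of the 5-library block given above holds for that p-value too. *Igkv4-63*, among the 12 most used genes, had 841, 1992 and 1501 counts in GFP libraries and 0, 466 and 180 in Ezh2 libraries, and was not called (edgeR adjusted p = 0.314 with 5 libraries and 0.25 with 6) except without robust weighting with 5 libraries (edgeR adjusted p = 0.00518).

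When each group of members linked by stretches of 50 or more identical bases was summed, 25 features were tested with 5 libraries. Of these, 1 was higher (against 2.57% of all features) and 3 were lower (against 1.32%). *Igkv6-20*, which stands alone there, rose. The sum of *Igkv10-94* and *Igkv10-96* fell (log2 fold change −1.10 ± 0.06, edgeR adjusted p = 9.51e-14), as did *Igkv14-100* and the sum of *Igkv5-43* and *Igkv5-45* (−1.82 ± 0.17, edgeR adjusted p = 2.59e-09). The sum of the 7 *Igkv3* genes was not called (1.46 ± 0.32, edgeR adjusted p = 0.0802), nor was the sum of the 10 *Igkv6* and *Igkv8* genes that include *Igkv6-14* (0.49 ± 0.15, edgeR adjusted p = 0.120) or that of the 21 *Igkv4* genes (−0.82 ± 0.31, edgeR adjusted p = 0.219). The sum of the 6 *Igkv1* genes that include *Igkv1-135* was not called (0.21 ± 0.19, edgeR adjusted p = 0.577). *Igkv6-14*, *Igkv3-10*, *Igkv3-4*, *Igkv4-51* and *Igkv1-135* were thus called only with relatives counted apart. The sums also pool members that share no such stretch, and why these calls were lost was not tested. With 6 libraries 24 features were tested, of which 1 was higher (against 1.63% of all features) and 2 were lower (against 0.904%), namely *Igkv6-20*, *Igkv14-100* and *Igkv11-125*. The sum of *Igkv10-94* and *Igkv10-96* was then not called (−1.45 ± 0.41, edgeR adjusted p = 0.123), nor was that of *Igkv5-43* and *Igkv5-45* (−1.15 ± 0.42, edgeR adjusted p = 0.166), which had 110, 91 and 284 counts in Ezh2 replicates 1, 2 and 3 against 308 to 357 in GFP libraries.

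By family, *Igkv6* with 8 members held the largest share of kappa V counts, 33.6%, 28.6% and 27.6% in GFP replicates 1, 2 and 3 and 43.8%, 54.4% and 48.5% in Ezh2 replicates 1, 2 and 3. The share of the 7 *Igkv3* genes was also above the GFP range in all Ezh2 libraries, at 3.66% to 5.97% against 1.59% to 2.34%. Below it in all Ezh2 libraries were the 21 *Igkv4* genes (6.70% to 8.65% against 11.1% to 18.0%), the 2 *Igkv10* genes (2.73% to 5.02% against 10.4% to 12.4%), and the *Igkv11*, *Igkv16* and *Igkv17* families. The 7 *Igkv1* genes held 13.3% to 14.8% against 12.6% to 16.3%, and the *Igkv5* and *Igkv14* families likewise overlapped between groups. Shares within a library add up to 100%, so a larger share of *Igkv6-32* lowers those of all others.

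The members lie between 18.4 and 3112.1 kb from *Igkj1* on chromosome 6, 30 on the plus and 47 on the minus strand. The 28 members within 1000 kb of *Igkj1*, with *Igkv6-32*, *Igkv6-14* and *Igkv6-20* among them, supplied 37.3% to 47.0% of kappa V counts in GFP libraries and 61.2% to 65.1% in Ezh2 libraries. The 25 members from 1000 to 2000 kb supplied 12.8% to 20.6% and 7.97% to 9.72%, and the 24 members farther away supplied 40.1% to 42.1% and 26.9% to 29.7%. The groups did not overlap in any of the 3 intervals. Members on the minus strand supplied 62.6% to 66.1% of kappa V counts in GFP libraries and 67.1% to 73.8% in Ezh2 libraries.

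**Figure D4:**
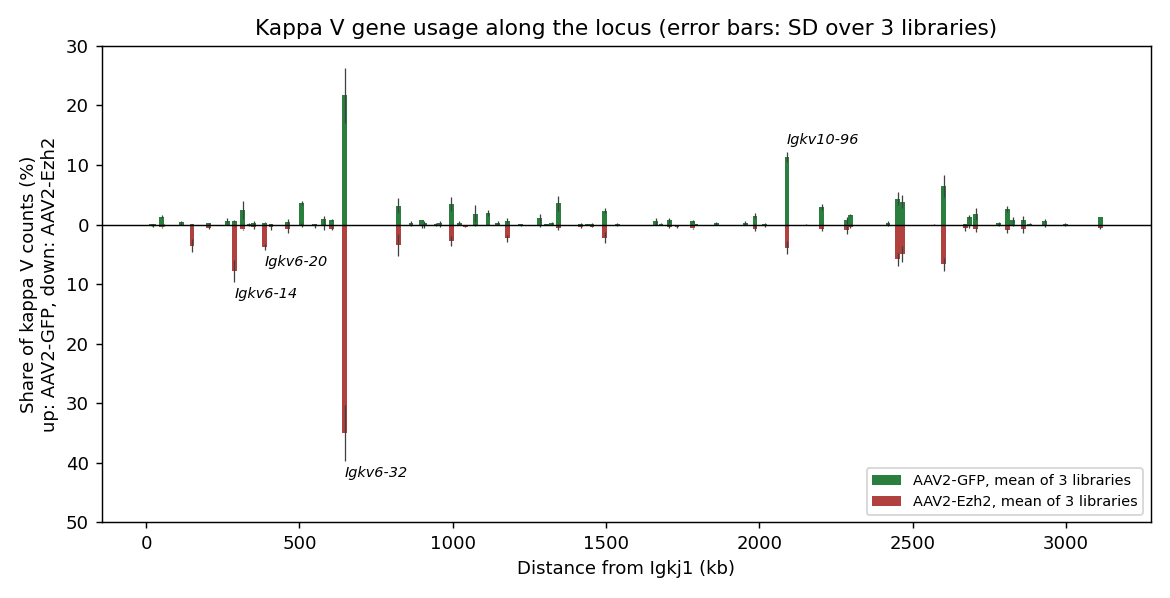
Mean share of kappa V counts (%) of each of the 77 members against its distance from *Igkj1* (kb), with GFP libraries upward and Ezh2 libraries downward and SD over 3 libraries as error bars. *Igkv6-32* was the largest bar in both groups, with means of 21.7% and 34.97%, and *Igkv10-96* fell from a mean of 11.4% in GFP libraries to 3.86% in Ezh2 libraries.

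Other genes of light chains and of the cells that make them were listed for comparison. Of *Igkc* and the 5 J segments, edgeR called 0 with 5 and with 6 libraries and DESeq2 called 0 with 5. With 5 libraries 1 of them had an unadjusted p under 0.05, *Igkc*, whose log2 fold change of 0.24 ± 0.05 was below the fold limit (edgeR adjusted p = 0.000696), and with 6 libraries 0 did. The J segments, which are short, held 3 to 60 counts each. Of 6 tested lambda genes, edgeR and DESeq2 called 0, and 0 had an unadjusted p under 0.05. Of 20 genes of B cells and plasma cells, 2 rose and 0 fell with 5 libraries: *Cd22*, an inhibitory receptor of B cells, with a log2 fold change of 1.00 ± 0.10 (edgeR adjusted p = 1.29e-08), and *Vpreb3*, with 1.06 ± 0.37 (edgeR adjusted p = 0.0418). With 6 libraries 1 of 19 rose, *Cd22*, which was also the only one DESeq2 called with 5. An unadjusted p under 0.05 was found for 11 of the 20 with 5 libraries and for 5 of the 19 with 6. Among these, *Xbp1*, *Prdm1* and *Irf4*, transcription factors of plasma cells, had edgeR adjusted p of 0.00259, 0.000989 and 0.002 with 5 libraries and log2 fold changes of 0.22, 0.43 and 0.30, below the fold limit. The share of all tested genes with an unadjusted p under 0.05 was not taken. With 5 libraries 3605 of 20241 tested genes had an edgeR adjusted p under 0.05 at any fold change. The share at an unadjusted p under 0.05 is at least as large, so counts at that limit do not show that a list stands out. *Ms4a1*, which encodes the B cell surface protein CD20, was at 3.00 to 4.88 CPM in all libraries and not called. *Jchain*, which joins antibody units in plasma cells, reached 441 to 490 CPM in GFP libraries and 479, 449 and 269 CPM in Ezh2 replicates 1, 2 and 3. Other plasma cell markers were far below *Jchain*. *Xbp1* stood at 124 to 151 CPM, *Prdm1* at 19.8 to 42.5 CPM, *Sdc1* at 7.26 to 11.1 CPM, *Derl3* at 5.98 to 9.47 CPM and *Mzb1* at 1.64 to 2.48 CPM. *Tnfrsf17* had 3 to 21 counts per library and went down without a call (log2 fold change −1.65 with 5 libraries, edgeR adjusted p = 0.166). Among recombination genes *Rag1* stood at 1.46 to 3.09 CPM, *Rag2* had at most 5 counts and *Igll1* was at 0 throughout. *Rag1* and *Dntt*, the 2 tested, were not called by edgeR or DESeq2, and 0 had an unadjusted p under 0.05.

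Heavy chain constant genes and markers of other immune cells were examined in the same libraries. Of 7 tested heavy chain constant genes 1 was higher with 5 libraries, *Ighg2b* (log2 fold change 0.78 ± 0.12, edgeR adjusted p = 0.00966), and 0 were called with 6, where 1 had an unadjusted p under 0.05 and *Ighg2b* stood at 0.50 ± 0.34 (edgeR adjusted p = 0.418). DESeq2 called 1 with 5 libraries, *Ighg2b*. With 5 libraries 4 of the 7 had an unadjusted p under 0.05. Among these, *Ighm* and *Ighg2c* rose below the fold limit (log2 fold changes 0.47 and 0.34, edgeR adjusted p = 2.79e-07 and 3.9e-05). *Igha* went down (−0.15, edgeR adjusted p = 0.0634). *Ighm* was also the gene with an unadjusted p under 0.05 with 6 libraries (0.44, edgeR adjusted p = 0.0122). As above, the share of all genes at this unadjusted limit was not taken, here and for the lists that follow. Of 7 T cell genes 1 rose, *Cd8a* (1.38 ± 0.08 with 5 libraries, edgeR adjusted p = 2.76e-13), which also rose with 6. All 7 had an unadjusted p under 0.05 with 5 libraries and 6 of the 7 with 6. The 7 summed to 367 to 396 CPM in GFP libraries and to 466 to 639 CPM in Ezh2 libraries. They include *Thy1*, at 87.2 to 113.8 CPM, which encodes the sorted antigen CD90.2 and is expressed by RGCs as well as T cells. Neither the sum nor the counts are therefore of T cells alone. Of 4 macrophage genes *Lyz2* and *Cd68* rose with 5 and with 6 libraries, all 4 had an unadjusted p under 0.05 with both sets, and the 4 summed to 471 to 533 CPM in GFP libraries and to 1406 to 2145 CPM in Ezh2 libraries. Of 5 tested RGC markers 0 were called with 5 libraries by edgeR or DESeq2 (2 had an unadjusted p under 0.05), and 1, *Nefl*, rose with 6. None of the markers of the T cell and macrophage lists was at 0 in any library. Their part in the differences of kappa V usage was not tested.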

How the data were processed

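CD90.2-positive retinal cells were profiled by stranded total RNA sequencing. The table of raw counts per Ensembl gene was deposited by the authors. The submitters' processing notes name STAR 2.7.0d and GRCm38. The counting program, annotation release and strand setting were not given in the sources used here. All 6 columns were matched to samples and 0 were left without one. Symbols, coordinates and transcripts came from GENCODE M21. No exon of a member overlapped an exon of another gene.

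Counts were fitted with edgeR 4.0.16 (filterByExpr, TMM, robust quasi-likelihood) (R 4.3.3), comparing the 2 groups over 5 libraries and again over 6. The 5-library fit was also run on simulated counts that gave every gene the common biological coefficient of variation, 0.0846. That is far below the median of 0.761 over tested members, so this check does not bear on calls among members. SE came from the F statistic. CPM used library totals. Permutation tests used scipy 1.17.1, V exon alignments Biopython 1.88 and pictures matplotlib 3.10.9.

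Named genes were the 12 with the highest mean share, the most used gene of each library, called genes with at least 100 normalized counts (up to 6 rises and 6 falls), those called with both sets of libraries, their closest relatives, the genes nearest the limit of 10 counts, and the listed context genes. Other genes called with 6 libraries and the examples of uneven replicates were chosen after their values were seen. Members and lists were chosen with earlier results of these data known. Alternatives were other library sets, a replicate block, DESeq2 1.42.0, other scaling, filters and thresholds, and summing near-identical members. The dispersion without robust weighting, the count of genes called with both library sets, and the summed members with 6 libraries were added after seeing the data.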

Additional observations from a re-analysis of the deposited data

Results flagged for a closer look

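Ezh2 replicate 3 did not enter the 5-library comparison, and 3 kappa V genes had at least 100 counts in it while every GFP library held under 10. *Igkv4-51* had 116 counts there and 0 in each GFP library, and it had 96 and 228 counts in Ezh2 replicates 1 and 2. *Igkv4-81* had 175 counts there and 0 in each GFP library, with 0 and 220 counts in Ezh2 replicates 1 and 2. *Igkv8-21* had 120 counts there and 3, 8 and 0 counts in GFP replicates 1, 2 and 3, with 436 and 2 counts in Ezh2 replicates 1 and 2. Only *Igkv4-51* among these was above 10 counts in all Ezh2 libraries. *Igkv4-81* and *Igkv8-21* were not tested with 5 or 6 libraries because of the filter on low counts. The 3 genes were picked by these counts. How many of all genes show the same pattern, or the opposite 1, was not counted, so their number is a description only.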

How the results depend on the processing

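*Igkv6-20*, *Igkv4-51*, *Igkv1-135* and *Igkv3-4* kept their direction and their call in all 22 alternatives fitted to single genes. For *Igkv4-51*, at 0 in every GFP library, entry into the test itself rested on the Ezh2 libraries. *Igkv6-14* kept its call in 19 of 22, *Igkv10-96* in 15, *Igkv14-100* in 14 and *Igkv3-10* in 7. None of the 15 kappa V genes followed through these alternatives changed direction. The 15 were the called genes and the named genes whose levels did not overlap between groups with 5 libraries. A change of direction was therefore unlikely from the start, and it was not tallied for the other members. Genes of other lists were not refitted under all these alternatives. Members called higher and lower were 4 and 4 with 5 libraries. They were 8 and 21 without robust dispersion weighting (6 and 11 with 6 libraries), and 6 and 15 with DESeq2 (1 adjusted p was NA). With the kappa V total as library size they were 5 and 9, against 1.38% and 5.49% of all tested genes, and the median of all genes moved to −0.22. They were 1 and 3 of 25 with near-identical members summed (1 and 2 of 24 with 6 libraries). For these other settings the shares over all tested genes are given in the Results. The replicate block gave 10 and 15 with 5 libraries (against 2.28% and 1.29% of all tested genes) and 4 and 6 with 6 (against 1.39% and 0.613%). With 5 libraries that block leaves few degrees of freedom, as given in the Results. Same-numbered libraries did not deviate together over all tested genes (correlations of −0.0045, −0.0199 and −0.0099 for replicates 1, 2 and 3). Over tested members the correlations were 0.0501, −0.0576 and −0.2352. Deviations were taken from group means that include Ezh2 replicate 3, so these values cannot exclude a pairing. Leaving out 1 of the 5 libraries gave 3 to 7 higher and 4 to 9 lower, and 1 of the 6 gave 2 to 4 and 4 to 10. A group left with 1 library is assumed to vary like the other. The cause of these shifts was not tested. The median log2 fold change stayed below 0, between −1.05 and −0.14. The difference in summed level, −15.6 CPM, became 12.4 CPM with TMM-scaled sizes, 20.04 CPM without GFP replicate 2 and 189 CPM without Ezh2 replicate 3, and ranged from −141 to 189 CPM when 1 library was left out. That in effective number, −5.99, ranged from −7.59 to −5.15. Mean dissimilarity within GFP, within Ezh2 and between groups became 0.134, 0.120 and 0.262 with near-identical members summed, and 0.298, 0.322 and 0.594 without the 10 most used members. Members with few counts per library limit the precision, and 13 of 77 could not be tested with 5 libraries.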
